A study of Mus musculus with 18 samples.

Results

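Acrosome genes encode the enzymes and membrane proteins of the acrosome, the secretory cap of the sperm head, and 10 of them were followed here through round spermatids (RS) of 3 mouse genotypes. The 10 genes, Acr, Acrbp, Acrv1, Spaca1, Spaca3, Spaca4, Zpbp, Zpbp2, Zp3r and Spam1, were chosen by name for their known place in the acrosome, out of 54232 genes in the count table. The choice was made with earlier results of these data known. All 10 passed the filter on low counts that left 21058 genes. The RS came from testes of mice aged 75 to 85 days, with 6 libraries per genotype and 18 in all. WT mice carry intact Ddx25, which encodes the testis RNA helicase GRTH, KO mice lack GRTH, and KI mice carry the human GRTH gene with a missense mutation that leaves the helicase without its phosphorylated form. Both mutants are sterile, with spermatids that stop before they elongate, and neither the labels nor the methods tie a library to a single animal. The question was how far these genes moved in KO and KI, and how that compares with genes that package sperm chromatin in the same cells.

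The acrosome is built from Golgi vesicles that fuse and spread over the spermatid nucleus while the cell is still round. Its matrix holds proteases and binding proteins that are released when the sperm meets the coat of the egg, the zona pellucida, and its inner membrane carries proteins that are exposed afterwards. Transcripts of the chromatin packaging proteins, the transition proteins (Tnp) and protamines (Prm), are also made in RS but are stored and translated later, when the nucleus condenses. GRTH carries messages out of the nucleus of RS and into the chromatoid body, a store of RNA in the cytoplasm.

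The promoters are shown first, since many genes of RS depend on CREM, a factor that binds the cAMP-responsive element (CRE). RefSeq windows (GRCm38.p6) of 250 bases before to 50 bases after the start matched 9 of the 10 genes, all but Acr. The letters searched, on both strands, were the full element TGACGTCA and its shorter core TGACG, which every full element contains. The full element stood in 0 of the 9 genes and in 1.79% of 32851 windows. The core stood in 4 of the 9, against 20.8% of the 32851 windows and in 0 of the 5 core packaging genes. Other forms of the element were not searched, so a lack of these letters does not show that a promoter lacks a CREM site. Spaca1 and Spaca3 have 2 windows each and so had more than 1 chance of a match. Capitals below mark the core in the direction of the gene (in Zpbp2 it lies on the other strand), shown for 1 site in each gene that held it.
Acrbp, chr6:125049896-125049925, + strand: ccctcaccttctgTGACGtagcagccgcgc
Spaca1, chr4:34050108-34050137, - strand: gggtgacgcgcggTGACGcctcaatggtta
Spaca3, chr11:80858288-80858317, + strand: gcacaggtgatctTGACGaagttccgtgag
Zpbp2, chr11:98550937-98550966, + strand: cgtttcctttactCGTCAcaccaccaggcc
The core began at position -18 from the RefSeq start in Acrbp, -59 in Spaca1 (with another at -69), -62 in Spaca3 and -147 in Zpbp2. For Acrbp and Spaca1 the RefSeq start lay inside the counted gene model. Zp3r and Spam1, whose RNA changed in both mutants, were not among the genes with these letters, and a match is a description of the letters only.

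Libraries held 18766971 to 26776555 counts in genes. The targeted gene, Ddx25, ranged from 538.2 to 607.3 normalised CPM (counts scaled to library size) in WT and from 47.73 to 90.88 in KO. It was at most 0.519 CPM in 5 KI libraries but 56.94 in the library labelled KI 4, which is at the level of KO. The KI changes of the 10 acrosome genes are therefore given with and without that library. By an index of the distance between libraries, in which 1 is sampling noise alone, 6 pairs of one genotype lay close together, the closest of them KO 4 and KO 5 (2.12) and the widest WT 5 and WT 6 (3), as did KI 4 and KO 2 (1.59), and the next pair was at 4.62. All pairs differed by more than sampling noise, which does not show that close libraries are independent samples. Each library was kept, and a fit with close libraries summed (3 WT, 5 KO and 3 KI samples, without KI 4) is given where it ends a call. If close libraries share an animal or preparation, the p-values from all libraries are too small. P-values measure the spread between these libraries, which may be technical in part. In bulk RNA, fewer cells of a type and less RNA per cell cannot be told apart.

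All 10 genes were expressed in RS at levels above most others. Per kilobase of exon, WT levels ran from 20.9 ± 5.85 CPM per kb (SD, n = 6) for Acrv1, above 86.3% of the genes tested, to 124.5 ± 19.1 for Zpbp2, above 98.1%. The order in WT was Zpbp2, Acr, Spaca1, Acrbp, Spam1, Spaca4, Spaca3, Zp3r, Zpbp and Acrv1. The libraries of each gene overlapped those of the next in this order, except that Zpbp (at least 29.7) lay above Acrv1 (at most 29.2). Spam1 stood above Spaca4 in WT (73.0 ± 16.4 CPM per kb) and below it in KO (43.1 ± 5.65) and KI (35.5 ± 7.81), and Zp3r stood above Zpbp in WT and below it in both mutants, with overlapping libraries each time. In raw counts, no gene of the 10 had fewer than 346 in any library.

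Few of the 10 genes passed the test. Zp3r and Spam1 fell in both mutants, to between 0.487 and 0.627 of WT, Spaca3 fell in KI alone by a call that does not hold in every fit, and none rose. Of the genes not called in KI, Acrv1, Spaca1 and Spaca4 had fitted levels of 0.775, 0.752 and 0.789 of WT, and Acr, Acrbp, Zpbp and Zpbp2 of 0.872 to 1.04. The genes are taken in turn below, in CPM scaled by TMM (a correction for the make-up of each library), with edgeR's quasi-likelihood test adjusted by the Benjamini-Hochberg method over 21058 genes. A gene was called at an adjusted p under 0.1.

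**Figure D1:**
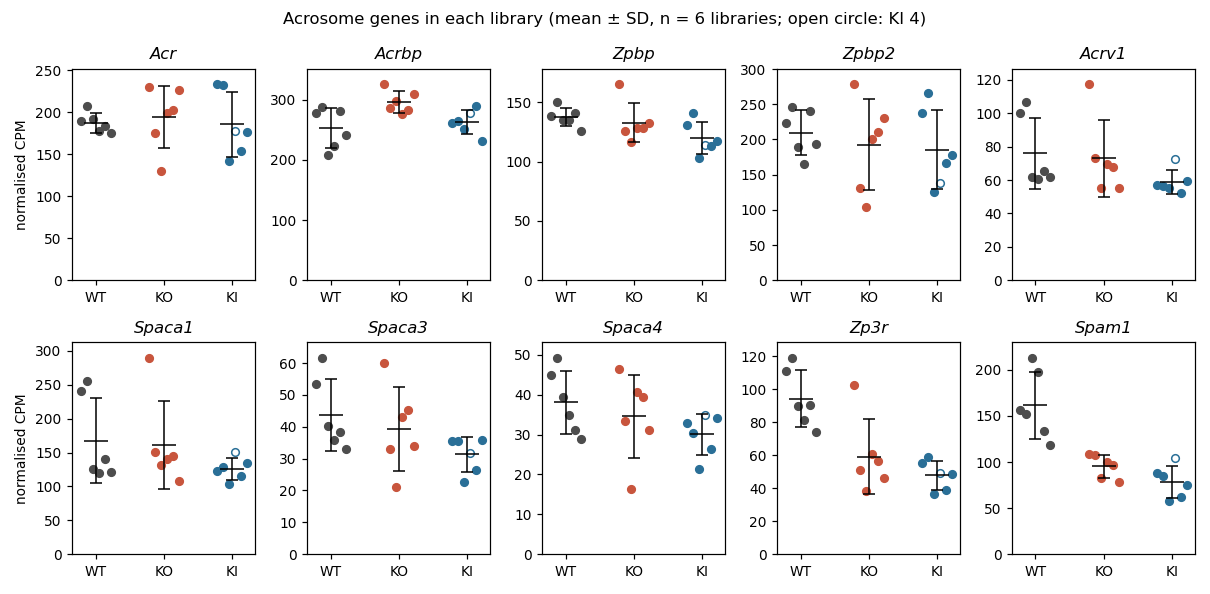
Normalised CPM (vertical axis, from 0) of the 10 acrosome genes in each of 18 libraries, by genotype (WT grey, KO red, KI blue; library labelled KI 4 open), with the mean and SD of 6 libraries. Spam1 is lower in every KO and KI library (at most 108.8 CPM) than in any WT library (at least 118.8), while Acr and Acrbp of the 3 genotypes overlap.

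Of the matrix proteins, Acr and Acrbp did not pass the test. Acr (chromosome 15, 89568326 to 89574585, + strand) encodes acrosin, the main protease of the acrosome. Its level ran from 175.0 through a median of 186.4 to 207.7 CPM in WT, from 130.7 through 200.6 to 230.2 in KO, and from 142.1 through 177.0 to 233.5 in KI. The KO and KI libraries spread on both sides of WT. Against WT the log2 fold change was 0.05 ± 0.15 (SE) for KO (adjusted p = 0.865, edgeR; 95% interval -0.25 to 0.35). It was -0.01 ± 0.15 for KI (adjusted p = 0.971, edgeR; -0.31 to 0.29).

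Acrbp (chromosome 6, 125049689 to 125063267, + strand) encodes the protein that binds the proform of acrosin and holds it in the matrix. It ran from 207.8 through 259.1 to 287.3 CPM in WT, from 276.3 through 292.0 to 325.6 in KO and from 231.8 through 262.1 to 288.9 in KI. KO libraries were in the upper part of the WT range or above it. The log2 fold change in KO was 0.23 ± 0.11, with a 95% interval of 0.00199 to 0.46 and an adjusted p of 0.142 by edgeR, and in KI it was 0.05 ± 0.11 (adjusted p = 0.778). An annotated antisense gene and a second transcript on the same strand overlap Acrbp. Counting used the strand, so reads of the antisense gene were kept apart. How reads that fit both Acrbp and the second transcript were assigned is not stated. Zp3r and Zpbp each also overlap a small RNA gene on the same strand (Gm23623 and Gm26458), and Zpbp overlaps further genes on the other strand, Spata48 among them.

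Zpbp and Zpbp2 encode 2 related matrix proteins that bind the zona pellucida and shape the acrosome. Zpbp (chromosome 11, 11279626 to 11462408, - strand) measured 126.0 to 150.3 CPM in WT with a median of 136.9, 116.6 to 165.3 in KO (median 128.6) and 102.9 to 140.9 in KI (median 116.0). Zpbp2 (chromosome 11, 98551097 to 98558665, + strand) ran from 164.9 to 246.3 in WT (median 208.0), from 104.4 to 278.5 in KO (median 205.2) and from 124.9 to 266.7 in KI (median 172.4). Their libraries overlapped between genotypes, and neither gene was called. Zpbp changed by -0.05 ± 0.11 (log2) in KO and -0.20 ± 0.11 in KI, and Zpbp2 by -0.12 ± 0.21 and -0.18 ± 0.21 (adjusted p by edgeR between 0.198 and 0.805). Without KO 1, which was the highest KO library for both, the changes in KO were -0.12 and -0.26 (adjusted p = 0.454 and 0.433).

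Acrv1 (chromosome 9, 36693220 to 36698843, + strand) encodes SP-10, a matrix protein made as the acrosome forms. It is the only gene of the 10 on the chromosome of Ddx25, 1.13 Mb from it. In WT, libraries 1 and 2 measured 100.2 and 106.6 CPM and the other 4 between 60.41 and 65.45. KO 1 measured 117.4, and the other KO libraries 54.99 to 73.18, while KI ran from 52.07 to 72.90, with KI 4 highest. The high values belong to WT 1 and WT 2, which are a close pair, and to KO 1, and the remaining WT libraries sit within the range of KO. The change was -0.06 ± 0.18 (log2) in KO (adjusted p = 0.865, edgeR) and -0.37 ± 0.18 in KI (adjusted p = 0.153). Without KO 1, the change in KO was -0.25 (adjusted p = 0.296) and that in KI was called at an adjusted p of 0.0813 by edgeR. Without KI 4 it was -0.44 in KI (adjusted p = 0.105).

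Zp3r fell in both mutants. Zp3r (chromosome 1, 130576713 to 130629621, - strand) encodes sp56, a matrix protein that takes part in binding the zona pellucida. WT libraries measured 110.9, 118.9, 90.14, 81.17, 90.37 and 73.91 CPM, KO libraries 102.4, 50.82, 38.23, 60.73, 56.70 and 45.94, and KI libraries 55.14, 58.80, 36.56, 49.02, 38.94 and 48.84. Every KI library and 5 of the 6 KO libraries were below the lowest WT library, and KO 1 was within the WT range. The log2 fold change was -0.67 ± 0.19 in KO (0.627 of WT; adjusted p = 0.0130, edgeR) and -0.98 ± 0.19 in KI (0.508 of WT; adjusted p = 6.25e-04). Without KO 1 the change in KO was -0.90 (adjusted p = 2.44e-04), and without KI 4 that in KI was -0.98 (adjusted p = 0.00147). With close libraries summed, Zp3r in KO was no longer called (-0.68, adjusted p = 0.114 by edgeR), while in KI it was.

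Of the membrane proteins, Spam1 fell the most in both mutants. Spam1 (chromosome 6, 24791188 to 24801048, + strand) encodes PH-20, a hyaluronidase of the sperm surface and inner acrosomal membrane. It measured 156.2, 152.3, 212.7, 197.3, 133.7 and 118.8 CPM in WT, 108.8, 107.5, 82.49, 99.62, 96.23 and 78.80 in KO, and 87.81, 84.54, 58.10, 104.8, 62.50 and 74.95 in KI. No mutant library reached the lowest WT library, and the highest WT values were in WT 3 and WT 4, a pair in which Acrv1 and Spaca1 were low. The log2 fold change was -0.76 ± 0.16 in KO (0.591 of WT; adjusted p = 0.00123, edgeR) and -1.04 ± 0.16 in KI (0.487 of WT; adjusted p = 4.40e-05). Without KI 4 the change in KI was -1.14 (adjusted p = 2.34e-05). In all 18 fits that left out 1 library, both Zp3r and Spam1 were called in both mutants.

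Spaca1, Spaca3 and Spaca4 encode sperm acrosome associated membrane proteins. Spaca1 (chromosome 4, 34024874 to 34050191, - strand), needed for the acrosome to hold its shape, had the widest spread of the 10 in WT, with a coefficient of variation of 37.5%. WT 1 and WT 2 measured 240.3 and 255.2 CPM and the other WT libraries 120.3 to 140.4, KO 1 measured 289.3 and the other KO libraries 107.8 to 151.0, and KI ran from 103.7 to 151.2. The same 3 libraries were high as for Acrv1. The change was -0.06 ± 0.22 in KO (adjusted p = 0.898, edgeR) and -0.41 ± 0.23 in KI (adjusted p = 0.199), and without KO 1 it was -0.31 and -0.41 (adjusted p = 0.277 and 0.107).

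Spaca3 (chromosome 11, 80858365 to 80867814, + strand), a lysozyme-like protein, ran from 33.02 through 39.24 to 61.56 CPM in WT, from 20.99 through 38.52 to 59.92 in KO and from 22.68 through 33.59 to 35.99 in KI. KI libraries overlapped the lower WT libraries. The change was -0.15 ± 0.20 in KO (adjusted p = 0.652, edgeR) and -0.48 ± 0.20 in KI (adjusted p = 0.0868), which was a call. Without KO 1 the change in KO was -0.31 (adjusted p = 0.270). The call in KI was lost without KI 4 (-0.48, adjusted p = 0.116), without any one of WT 1, WT 2, WT 3, KO 4, KI 3 or KI 5, with close libraries summed (adjusted p = 0.466) with no filter on low counts (adjusted p = 0.127) and by DESeq2 (adjusted p = 0.110), and it stayed in 11 of the 18 fits that left out 1 library.

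Spaca4 (chromosome 7, 45725107 to 45725813, - strand), a small protein anchored in the inner acrosomal membrane, had WT values of 28.84 to 49.19 CPM (median 37.26), KO values of 16.43 to 46.56 (median 36.44) and KI values of 21.45 to 34.84 (median 31.72). All 3 genotypes overlapped, and the lowest library was KO 3. The change was -0.14 ± 0.19 in KO (adjusted p = 0.672, edgeR) and -0.34 ± 0.19 in KI (adjusted p = 0.215; 0.0973, a call, without KO 3). Without KO 1 the change in KO was -0.24 (adjusted p = 0.422). The gene lies within Fam83e on the other strand, whose reads were counted apart.

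As a group, the 10 genes held 2 that fell in KO and 0 that rose, against 13.5% of all genes tested called lower and 16.4% called higher. In KI 3 fell and 0 rose, against 15.4% and 16.1%, and 2 fell without KI 4. With 10 genes, 2 and 3 calls are not far above that background. Of the 6 genes not yet given for KI without KI 4, Acr measured 0.00, Acrbp 0.04, Zpbp -0.18, Zpbp2 -0.10, Spaca1 -0.47 and Spaca4 -0.39 on the log2 scale, with adjusted p of 0.168 or more by edgeR. The median log2 fold change of the 10 was -0.09 in KO and -0.35 in KI, beside 0.03 and 0.05 for all genes tested. Without KO 1 the median in KO was -0.25, and without KI 4 that in KI was -0.41. Both comparisons use the same WT libraries, so their likeness is not independent. By edgeR's glmTreat with a threshold of 1 log2 unit none of the 10 passed, a test that 1.13% of all genes passed downward in KO and 1.43% in KI. For 8 of the 10 the 95% interval of the change stayed within 1 log2 unit of 0 in each comparison, and for Zp3r and Spam1 it did not. WT and KO libraries did not overlap for 1 gene of the 10, Spam1, and WT and KI libraries for 2, Zp3r and Spam1, against 13.1% and 13.9% of all genes.

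Set directly against each other, KI and KO did not differ in any of the 10 genes by edgeR (adjusted p of 0.961 or more; 0 of the 10 at an unadjusted p under 0.05, and 0 called by DESeq2). Of all genes tested 0.0997% were called between the 2 mutants. All 10 estimates were below 0, from -0.05 for Zpbp2 to -0.35 for Spaca1, and the 95% intervals ran from -0.82 to 0.39 at the widest. That Spaca3 was called in KI and not in KO is thus no measured difference between the mutants. Without KO 1, the estimates for Spaca1 and Zp3r were -0.10 and -0.08, and that for Zpbp2 turned to 0.08. Without KI 4 the estimates for Spaca1 and Spam1 were -0.41 and -0.38, that for Zpbp2 turned to 0.02, and none of the 10 was called (adjusted p of 0.471 or more, edgeR).

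The packaging genes changed far more than the acrosome genes in the same libraries. Tnp1, which encodes the transition protein that displaces histones, measured 1999 ± 223.3 CPM (SD, n = 6) in WT, and 582.7 ± 149.1 and 540.5 ± 128.2 in KO and KI. Prm2, a protamine, measured 6078 ± 803.8, 592.7 ± 187.5 and 526.6 ± 66.45. The highest mutant library of either gene was below the lowest WT library. All 5 core genes, Tnp1, Tnp2, Prm1, Prm2 and Prm3, fell past 1 log2 unit in both mutants, by 1.78 (Tnp1) to 3.36 (Prm2) on the log2 scale in KO. Their median change was -2.14 in KO and -2.41 in KI, and the packaging median less the acrosome median was -2.05 in KO and in KI alike (-1.99 in KI without KI 4).

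**Figure D2:**
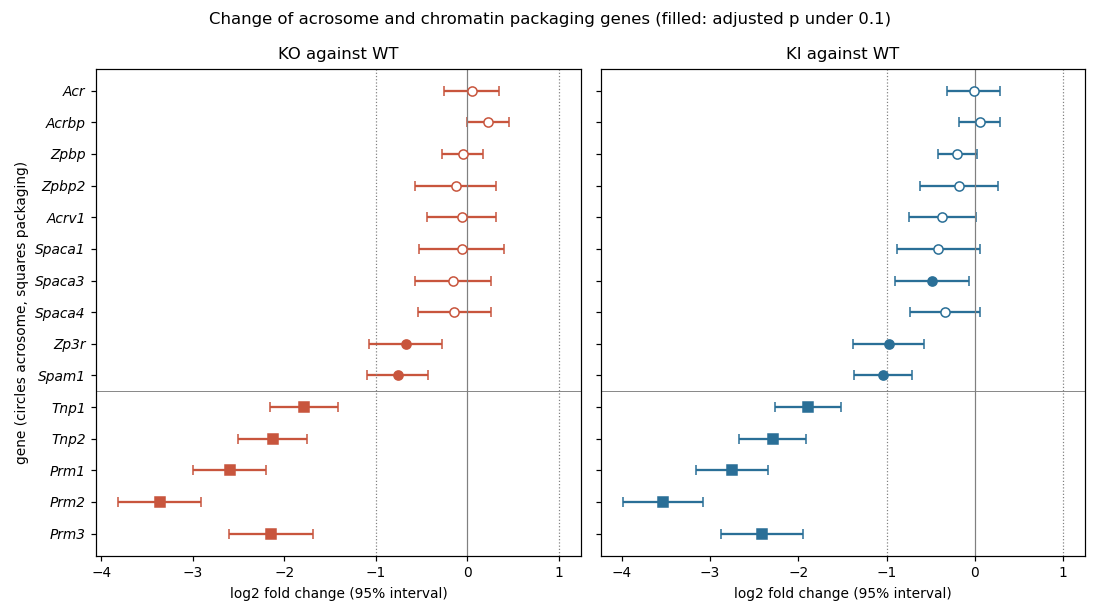
Log2 fold change against WT (horizontal axis) with its 95% interval, in KO (left) and KI (right), for the 10 acrosome genes (circles) and 5 core packaging genes (squares); filled symbols have an adjusted p under 0.1 and dotted lines mark 1 log2 unit. The packaging genes lie at -1.78 or lower, and the lowest acrosome gene is Spam1 at -0.76 in KO and -1.04 in KI.

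Within libraries, the change of each gene was also tested against the mean change of the 5 packaging genes, which does not depend on how the libraries are scaled. The change of all 10 acrosome genes lay above that mean in KO and in KI. The study had named the 5 packaging genes for their fall in these same libraries. The outcome was thus largely fixed in advance, and the p-values are no independent evidence. The difference was smallest for Spam1, at 1.73 ± 0.20 log2 units in KO and 1.52 ± 0.19 in KI, and largest for Acrbp, at 2.76 ± 0.21 and 2.65 ± 0.21 (adjusted p of 9.52e-09 or less in KO and 6.34e-08 or less in KI for the 10, edgeR). All 10 kept the call with Tnp1 and Tnp2 alone as the reference. The background was 99.1% of all genes in KO and 99.2% in KI, so a change above the packaging mean is shared by nearly every gene and is no property of the acrosome genes.

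The border between the lists is not empty. Of 11 packaging genes on the wider list, which adds spermatid histones and Tssk6, all 11 fell in both mutants and 10 passed 1 log2 unit in each, beside 1.13% of all genes in KO and 1.43% in KI. With close libraries summed 8 passed in KO and 7 in KI (0.742% and 0.688% of all genes), and without KI 4 it was 9 in KO. The study named most of these packaging genes, the 5 core genes among them, for their change in these same libraries, so the counts are not independent evidence of their direction. H1f9, which it did not name, was the gene that did not pass. H1f9 is a linker histone of elongating spermatids, and its change was the smallest of the 11, at -0.74 ± 0.21 in KO and -1.02 ± 0.21 in KI, beside Spam1 at -0.76 ± 0.16 and -1.04 ± 0.16, a pair chosen after their values were seen. With all 11 genes the difference of the medians in KO was -1.71.

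Library by library, the mean log2 CPM of the 10 acrosome genes less that of the 5 packaging genes was -4.11 to -3.79 in WT, -2.003 to -1.06 in KO and -1.99 to -1.60 in KI, so neither mutant overlapped WT. The packaging mean alone gave this gap, at 10.5 to 10.94 in WT and at most 8.70 in the mutants. Those genes were named for their fall in these libraries, so the gap was largely fixed in advance. The acrosome means overlapped, at 6.58 to 7.15 in WT, 6.17 to 7.16 in KO and 6.13 to 6.63 in KI. The KO library closest to 0 was KO 1, at -1.06, where the acrosome mean (7.16) was the highest of the 18 libraries while the packaging mean (8.23) was within the range of the other KO libraries. KO 3 had the lowest packaging mean (7.56) and one of the lowest acrosome means (6.17). KI 4 measured -1.99, the lowest of KI and next to KO 2 (-2.001).

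**Figure D3:**
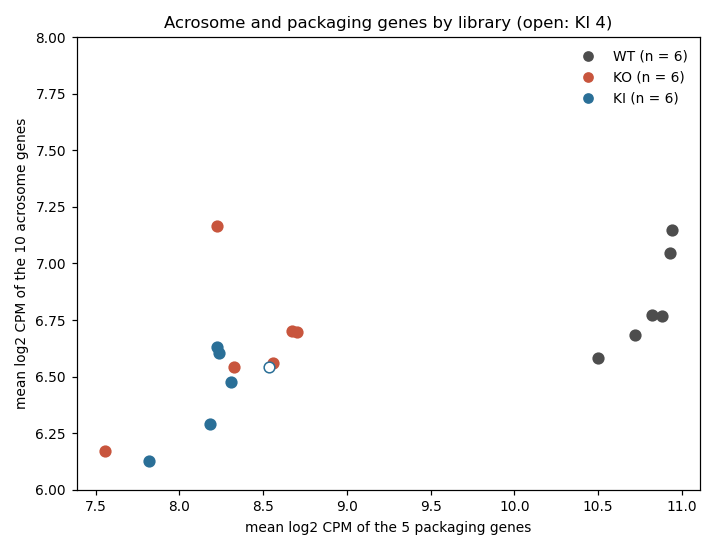
Mean log2 CPM of the 10 acrosome genes (vertical axis, cropped) against that of the 5 core packaging genes (horizontal axis, cropped), 1 point per library (WT grey, KO red, KI blue; library labelled KI 4 open). WT libraries lie above the mutants on the packaging axis, where no mutant exceeds 8.70, whereas the genotypes overlap on the acrosome axis, where KO 1 is highest at 7.16.

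The acrosome genes did not vary as one block. With genotype means removed, Pearson's r between pairs of the 10 over 18 libraries had a median of 0.605 over 45 pairs and ran from -0.304 (Acrbp and Spam1) to 0.971 (Acrv1 and Spaca1). Spaca3 with Spaca4 (0.940), Spaca3 with Zp3r (0.929) and Acr with Zpbp2 (0.901) were also high. These libraries share depth, scaling and the close pairs named above, so r is a description. Among all genes tested, those nearest to a gene of the 10 over the 18 libraries included Spaca1 for Acrv1 (r = 0.973), Tmem190 for Acrv1 (0.960), Lyzl6 for Spaca1 (0.942), Lyzl1 for Zp3r (0.987) and Dkkl1 for Acrbp (0.831). They were named out of the nearest 3 of each gene after their values were seen, as known sperm genes. The single nearest gene was Eif3c for Acr (0.977), Il4i1 for Acrbp (0.924), Tes for Spaca3 (0.977) and Odf3 for Spaca4 (0.978). It was Chchd6 for Zpbp (0.929), Cops2 for Zpbp2 (0.981) and Gm20268 for Spam1 (0.989). Nearness was thus not particular to sperm genes.

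Other genes of the acrosome were read from 3 lists. Of 18 genes for further contents and membrane proteins, 17 were tested, 7 fell in KO and 12 in KI, and 0 rose. Of all genes tested, 13.5% were called lower in KO and 15.4% in KI, and 16.4% and 16.1% higher. Their median change was -0.36 in KO and -0.69 in KI, and none passed 1 log2 unit. The counts were 7 and 12 without KI 4 as well, beside 13.7% and 15.8% of all genes, and 10 in KO without KO 1, beside 14.3%. With close libraries summed they were 3 in KO and 5 in KI, a fit in which 7.62% and 6.87% of all genes were called lower. The largest falls in KO were Cst13, of the cystatin family of protease inhibitors, and Lyzl1, a lysozyme-like protein. Cst13 measured 51.5 ± 8.36 CPM in WT, against 29.1 ± 5.68 for KO and 24.2 ± 6.13 for KI, a change of -0.82 ± 0.16 and -1.09 ± 0.16 (adjusted p = 6.81e-04 and 2.95e-05, edgeR). Lyzl1 measured 48.3 ± 12.6, 28.3 ± 12.3 and 20.9 ± 3.36, a change of -0.77 ± 0.22 and -1.21 ± 0.22 (adjusted p = 0.0113 and 2.36e-04).

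Of 18 genes that act in building the acrosome, 2 fell and 2 rose in KO, and 4 fell and 1 rose in KI, beside 13.5% lower and 16.4% higher of all genes in KO and 15.4% and 16.1% in KI. The shares in KO are no larger than that background. In KI the share that fell is above it (22.2% without KI 4, against 15.8% of all genes), but not with close libraries summed. Sppl2c, an intramembrane protease of spermatids, went from 205.5 ± 22.9 CPM in WT to 97.5 ± 22.9 in KO and 88.1 ± 17.7 in KI (-1.08 ± 0.16 and -1.22 ± 0.16, adjusted p = 3.73e-05 and 6.86e-06 by edgeR). Spata46 fell by 0.46 on the log2 scale in KO (adjusted p = 0.0528). Gopc, a Golgi protein required for vesicles to form the acrosome, rose from 25.7 ± 4.35 CPM in WT to 35.5 ± 2.64 in KO and 35.2 ± 3.20 in KI (0.47 ± 0.11 and 0.45 ± 0.11, adjusted p = 0.00415 and 0.00468). Smap2, which acts on vesicles of the Golgi, rose by 0.46 ± 0.15 in KO (adjusted p = 0.0256) and measured 0.26 ± 0.15 in KI (adjusted p = 0.209). Without KI 4 the counts were unchanged and the KI changes of Sppl2c and Gopc were -1.31 and 0.45. Without KO 1 there were 4 that fell and 2 that rose in KO (22.2% and 11.1%, against 14.3% and 16.3% of all genes). With close libraries summed, 1 gene fell (Sppl2c, adjusted p = 0.00158 by edgeR) and 1 rose (Gopc, 0.0839) in KO, and in KI 1 fell (Sppl2c, 0.00306) and 0 rose. In that fit 7.62% of all genes were called lower and 7.94% higher in KO, and 6.87% and 5.32% in KI. The share of the list that fell was 5.56% in each mutant, below that background.

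Of 11 genes of acrosomal exocytosis, 8 were tested and 0 were called in KO, where their changes ran from -0.22 to 0.21. Among all genes tested, 13.5% were called lower and 16.4% higher in KO, and 15.4% and 16.1% in KI. In KI 1 rose, Stx2, a syntaxin of membrane fusion, by 0.33 ± 0.13 (adjusted p = 0.0763, edgeR), a gene named after its value was seen. Without KI 4 its change was 0.39 (adjusted p = 0.0391), and with close libraries summed it was not called (0.41, adjusted p = 0.267). The 3 lists had medians of -0.36, -0.05 and 0.06 in KO, against 0.03 for all genes. In KI the medians were -0.69, -0.06 and -0.04, against 0.05. Most of the contents and membrane list was called lower in KI (12 of 17, or 5 with close libraries summed). In the other 2 lists only some genes moved.

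**Figure D4:**
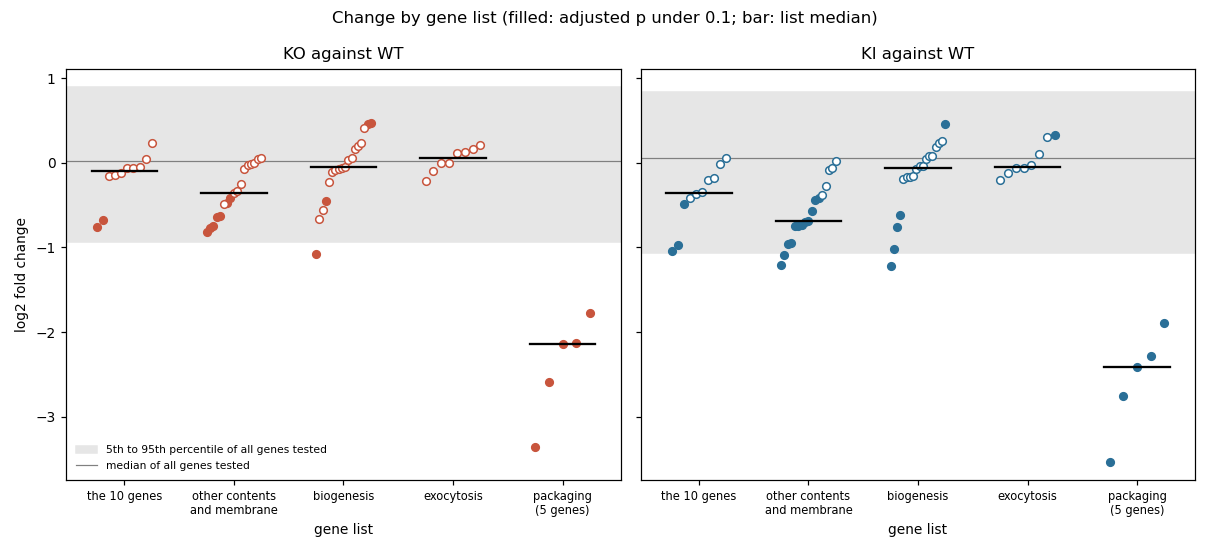
Log2 fold change against WT (vertical axis) of the 10 acrosome genes, of 17, 18 and 8 tested genes of the other acrosome lists and of the 5 core packaging genes, in KO (left) and KI (right); filled points have an adjusted p under 0.1, bars are list medians and the grey band spans the 5th to 95th percentiles of all genes tested. Medians of the acrosome lists lie between -0.36 and 0.06 in KO and between -0.69 and -0.04 in KI, and that of the packaging genes at -2.14 and -2.41.

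Markers of other cells moved with genotype, and their part in these results was not tested. All 5 Leydig cell markers were higher in KO and KI, with a summed level of 9.68 to 19.7 CPM in WT, 29.6 to 51.0 in KO and 13.2 to 65.7 in KI. The 6 markers of elongating spermatids, many of whose transcripts RS already hold, all fell, from 9170 to 13600 CPM in WT to 1390 to 5810 in KO and 2200 to 3320 in KI, and the highest KO library was KO 1. Of 6 further RS markers 3 fell in each mutant, with sums of 494 to 852 CPM in WT, 328 to 677 in KO and 325 to 542 in KI. The 6 pachytene spermatocyte markers summed to 583 to 681, 648 to 913 and 596 to 792 CPM, again with KO 1 highest. These 6 did not move together: 2 were lower and 2 higher in KO, and 1 was lower and 1 higher in KI. Spermatogonial markers summed to 19.6 to 26.3 CPM in WT, 23.6 to 51.7 in KO and 13.9 to 53.3 in KI, and of the 5 markers 2 were higher in KO and 1 in KI. Macrophage markers summed to 3.47 to 5.73, 4.80 to 8.08 and 6.40 to 9.06 CPM, so that KI lay above WT, and 1 of 4, Csf1r, was higher in both mutants. The 2 markers of peritubular myoid cells summed to 3.25 to 3.93, 2.23 to 3.65 and 1.60 to 2.78 CPM, with KI below WT; Myh11 was lower in both mutants and Acta2 higher in KO. Sertoli cell markers summed to 6.72 to 11.8, 6.49 to 10.4 and 5.78 to 10.5 CPM, and of the 7 markers 1 was lower in each mutant and 1 higher in KI. Of the 2 erythrocyte markers, which summed to at most 2.33 CPM in any library, 1 was tested and was higher in KI.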

How the data were processed

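Per the study's methods and the labels, libraries of RS total RNA were prepared with a Takara Pico kit, which keeps the strand and here omitted polyA selection, and the authors trimmed reads (cutadapt 3.4), aligned them to GRCm38 (STAR 2.7.8a) and counted them per gene by strand with featureCounts (Subread 2.0.1) on GENCODE gene models. The deposited values are raw counts per gene and library, with an exon length for each gene. Libraries were grouped by the genotype in the labels. Counts were tested with edgeR 4.0.16 (R 4.3.3): filterByExpr, TMM, genotype as the only term over 18 libraries, quasi-likelihood F-test, glmTreat against 1 log2 unit, Benjamini-Hochberg over 21058 genes, threshold 0.1. For the comparison with packaging genes their mean log2 CPM (prior count 2) was added to the offset. Alternatives used DESeq2 1.42.0 and limma 3.58.1. The fits were tested on simulated counts. Replicate numbers did not pair the libraries. The genes and lists were chosen with earlier results of these data known. All 10 genes are named, and from the other acrosome lists the 2 largest called rises and falls in KO. Overlaps of gene models were read from GENCODE M21, in which all 10 genes have the same start and end. The lowest total, 18766971 counts, makes 3 counts 0.160 CPM. Figures used matplotlib 3.10.9.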

Additional observations from a re-analysis of the deposited data

Results flagged for a closer look

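In 5 of the 30 groups formed by 10 genes and 3 genotypes, 1 library stood apart from the other 5 of its genotype (Dixon's test at 95%, by which chance alone flags about 1 in 20 groups). KO 1 accounted for 4 of them, with 117.4 CPM of Acrv1 (next highest KO library 73.18), 289.3 of Spaca1 (151.0), 165.3 of Zpbp (132.9) and 102.4 of Zp3r (60.73). The other was KI 4, with 72.90 CPM of Acrv1 (next 59.61). The genes are not independent of each other within a library.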

How the results depend on the processing

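The count of genes called in KO and the difference of medians in KO each moved under 1 alternative. With close libraries summed and without KI 4, the number called in KO was 1 (Spam1) in place of 2, where fewer samples enter the fit. With all 11 packaging genes the difference of medians in KO was -1.71 in place of -2.05. Leaving out each library in turn gave 2 genes in every KO fit, 2 to 4 in KI (4 without KO 1 or KO 3) and differences of medians of -2.13 to -2.003 in KO and -2.14 to -1.99 in KI. The KI count was also 2 at an adjusted p under 0.05, by DESeq2, with no filter on low counts and with close libraries summed. With the replicate number as a block, 2 genes were called in KO and 3 in KI, so the block changed no call. Same-numbered libraries of different genotypes correlated from -0.44 to 0.48 in their deviations from the group means, and 5 of 18 libraries matched best a library of their own number. Gene by gene, 766 of 780 fits against WT or KO kept the side of the threshold, and 11 of the 14 changes were losses of Spaca3 in KI. At 346 counts or more per gene and library, counting error is small beside the spread between libraries, and the close pairs limit how many samples are independent.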
